A study of Mus musculus with 4 samples.

Results

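The genes described here are 40 mouse genes of growth factor signalling through receptor tyrosine kinases, chosen by name from the array annotation. They comprised every probed gene named Fgf with a number, Fgfr1 to Fgfr4 and Fgfrl1, the PDGF ligands Pdgfa, Pdgfb, Pdgfc and Pdgfd, the VEGF ligands Vegfb and Vegfc, the VEGF receptors Flt1, Kdr and Flt4, and the pairs Hgf with Met and Kitl with Kit. They had 64 of the 55681 probes of the array, and 22340 genes in all had a named probe. For the 19 members with several probes, the probe with the highest mean signal over the 4 arrays was used, so signal level chose the probe but differences between arrays did not. By role the members were 15 paracrine FGF ligands, 4 intracellular FGFs, 3 hormone-like FGFs, 5 FGF receptors, 4 PDGF ligands, 2 VEGF ligands, 3 VEGF receptors, and 1 gene each for HGF, its receptor, the KIT ligand and KIT.

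Total RNA was measured on 4 single-colour Agilent arrays, 1 for each of 4 cultures of mouse neural stem cells labelled p53-/-, brain and E14.5 embryo. NSCL61-Ceacam1sh was the line NSCL61 carrying a short hairpin RNA against Ceacam1, and NSCL61 was the line without it, known from earlier work as glioma-initiating cells in which an activated Ras protein was introduced. NSC-Ceacam1L was neural stem cells expressing the L form of Ceacam1, an adhesion molecule of the immunoglobulin family, and NSC was neural stem cells without it. All cells grew in serum-free medium, and per the labels vectors were transfected and cells selected with hygromycin for 1 week. The labels do not say whether NSC and NSCL61 carried an empty vector, what promoter drove the inserts, or whether a culture was 1 clone. The study took genes that differed between NSC-Ceacam1L and NSC, or between NSCL61-Ceacam1sh and NSCL61, as candidates for acting downstream of Ceacam1.

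FGF, PDGF, VEGF, HGF and KIT ligands are secreted proteins that bring receptor tyrosine kinases together in pairs. The paired receptors phosphorylate each other, dock adaptor proteins and activate the Ras to MAP kinase and PI3 kinase cascades, and FGFs and several of the other ligands also bind heparan sulfate at the cell surface. In the embryonic brain, FGF receptors keep neural stem cells dividing, PDGF-A drives the oligodendrocyte lineage through the PDGF alpha receptor, and PDGF-B, VEGF, KIT ligand and HGF act between neural, vascular and other cells.

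All 4 arrays shared 1 slide and each group had its own place on it, so the effects of place and of group cannot be told apart. Each group had 1 array, which leaves no replicate check and no test, and so few arrays limit the precision. The error given as ± is the scanner software's modelled spot error of both arrays combined, which covers technical error within an array only. Levels are signals as a percentage of the 75th percentile of their array, and they compare arrays for 1 probe, not genes with each other. A gene was evaluated in a comparison when its probe was well above background by the scanner's test on at least 1 of the 2 arrays, and a difference of 2-fold or more (1 on the log2 scale) counted it as higher or lower. For a gene dim on 1 of the 2 arrays, "at least" divides the bright level by the dim one, or by the lowest level that passed the background test on the dim array if that is larger. These values hold for the background subtraction of the files. Normexp, an alternative correction that adds an offset to every signal, gave smaller differences for members dim on 1 array, and its values stand beside those of the probes used. In RNA from a whole culture, fewer cells of a type and less RNA per cell cannot be told apart.

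No probe was named for Ceacam1, so neither the hairpin nor the insert could be checked. Of 9 neural stem cell markers, 8 were well above background on NSCL61-Ceacam1sh (all but Hes5), 8 on NSCL61 (all but Prom1), 9 on NSC-Ceacam1L and 9 on NSC. Their summed levels were 31777%, 94303%, 70655% and 88383% on the arrays in that order. Between NSCL61-Ceacam1sh and NSCL61, 1 of the 9 was higher and 5 were lower by 2-fold or more (median -1.18 on the log2 scale). Of 6 oligodendrocyte precursor markers, 2 were well above background on NSCL61-Ceacam1sh and 6 on each other array, and their summed levels were 229% on NSCL61-Ceacam1sh, 12817% on NSCL61, 25731% on NSC-Ceacam1L and 23310% on NSC. Of 10 fibroblast and mural markers, 7, 6, 5 and 4 were well above background on the arrays in that order, with summed levels of 3886%, 467%, 2075% and 385%, and Lum was well above background on none. Of 8 endothelial markers 2, 3, 2 and 2 were, with summed levels of 1073%, 78.4%, 202% and 382%, and Tek, Tie1, Emcn, Esam and Cldn5 were well above background on none. Of 8 microglial and haematopoietic markers 2, 3, 2 and 2 were, with summed levels of 1217%, 2672%, 2651% and 2120%, and Aif1, P2ry12, Ptprc, Gata1 and Cpa3 were well above background on none. The part of these other cell types in the differences below was not tested.

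Of the 40 members, 28 were well above background on NSCL61-Ceacam1sh, 24 on NSCL61, 27 on NSC-Ceacam1L and 27 on NSC, and 21 were so on all 4 arrays. Fgf3, Fgf4, Fgf16, Fgf17 and Fgf20, developmental FGF ligands, and the hormone-like Fgf15 and Fgf21 were well above background on none. Fgf2, Fgf5, Fgf10, Hgf and Pdgfd, all ligands, passed on NSCL61-Ceacam1sh alone, and the receptor Flt4 passed on NSC alone. Kit, Fgf9 and Fgfr4 passed on every array but NSCL61-Ceacam1sh, and Fgf13 on every array but NSCL61. Fgf12 passed on NSC-Ceacam1L and NSC, and Fgf7 on NSCL61-Ceacam1sh and NSC-Ceacam1L.

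**Figure D1:**
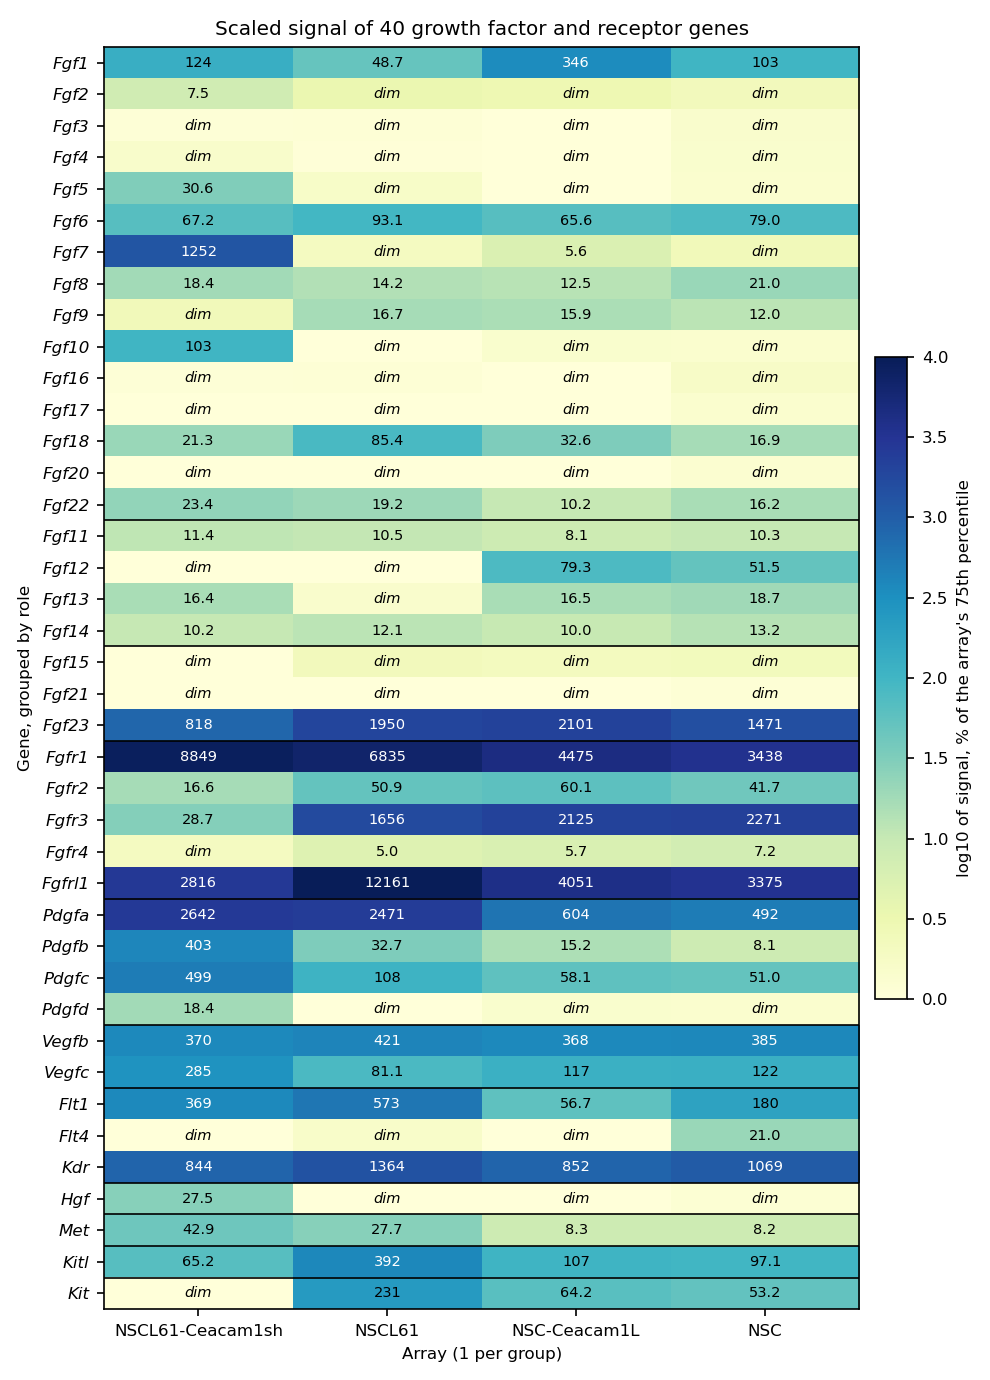
Level of each of the 40 genes (rows, grouped by role) on the 4 arrays (columns), printed in each cell as a percentage of the array's 75th percentile, with "dim" for a probe not well above background. Colour is the log10 of that percentage, to be read along a row. A reader should see Fgf2, Fgf5, Fgf10, Hgf and Pdgfd above background on NSCL61-Ceacam1sh alone, and Kit, Fgf9 and Fgfr4 dim there alone.

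Between NSCL61-Ceacam1sh and NSCL61, several FGF and PDGF ligands were higher with the hairpin and most FGF receptors and the KIT pair were lower. Of 40 members, 31 were evaluated. Of these 11 were higher and 9 lower by 2-fold or more, 64.5% of those evaluated, against 47.7% of all 15620 genes evaluated (23.5% higher and 24.2% lower). The higher members were the secreted ligands Fgf1, Fgf2, Fgf5, Fgf7, Fgf10, Hgf, Pdgfb, Pdgfc, Pdgfd and Vegfc, and the intracellular Fgf13. The lower members were Fgf9, Fgf18, Fgf23, Fgfr2, Fgfr3, Fgfr4, Fgfrl1, Kitl and Kit. The median member difference was 0.13 on the log2 scale, against 0.01 over all genes. Summed fibroblast and mural marker levels stood at 3886% on NSCL61-Ceacam1sh against 467% on NSCL61 beside this, and summed oligodendrocyte precursor levels at 229% against 12817%. A sum gives most weight to its brightest probes. Of 9 fibroblast and mural markers evaluated, 6 were higher and 2 lower, and Rgs5 and Thy1 were well above background on NSCL61 but not on NSCL61-Ceacam1sh. Members evaluated on 1 array alone passed because they were bright there, so the count of members is a description of these 2 arrays. Over the 21 members well above background on both arrays, 10 passed 2-fold, 4 higher and 6 lower, against 39.1% of all 12961 genes seen on both, and their median turned to -0.19, against 0.07 over all genes seen on both.

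Between NSC-Ceacam1L and NSC few members differed. Of 28 evaluated, Fgf1 and Fgf7 were higher and Flt1 and Flt4 were lower by 2-fold or more, 14.3% of those evaluated, against 16.5% of 15313 genes (10.5% higher and 6.05% lower), a share near that of all genes. The median member difference was 0.07, against -0.10 over all genes. Of the 26 members well above background on both arrays, 24 differed by less than 2-fold, from -0.76 for Fgf8 to 0.95 for Fgf18, both on the log2 scale. Scaling moved the split of calls: 4 higher and 2 lower with median scaling or cyclic loess, and 5 higher and 2 lower with spike-in scaling.

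Between NSCL61 and NSC, PDGF ligands, the KIT pair, Met, Flt1, Fgf18 and Fgfrl1 were higher in NSCL61, and Fgf1, Fgf12, Fgf13 and Flt4 were lower. Of 27 members evaluated, 9 were higher and 4 lower by 2-fold or more, 48.1% of those evaluated, against 28.4% of 15299 genes (14.4% higher and 14% lower). The median was 0.29, against 0.03 over all genes. This comparison shares an array with each of the other two, so its values are given beside theirs with no overlap drawn between them. Fgf1 and Fgf7 were the members counted in both Ceacam1 comparisons, which share no array, and both were higher in NSCL61-Ceacam1sh than in NSCL61 and higher in NSC-Ceacam1L than in NSC. The second of these calls was weak for Fgf7, at least 1.08-fold, and was lost with normexp (0.10). No share of all genes counted in both is given here, so nothing is read from this overlap.

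**Figure D2:**
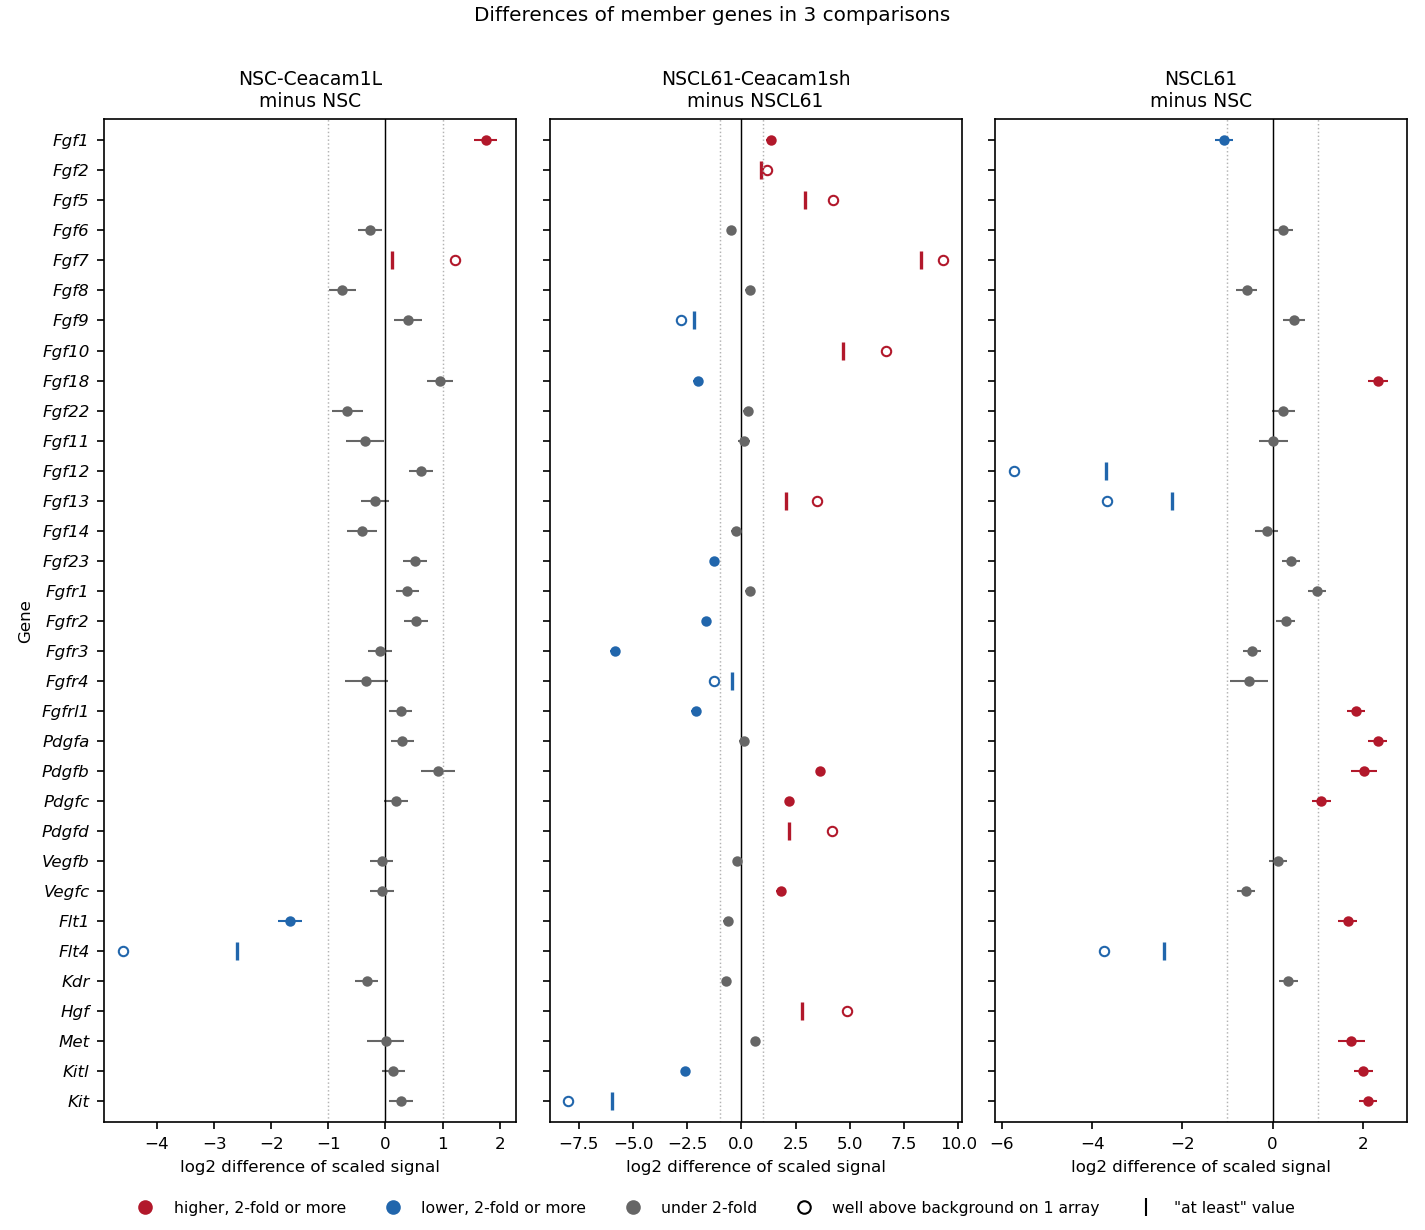
Difference of each member that was evaluated in at least 1 comparison, on the log2 scale (horizontal axes, which differ in range), in 3 panels, from left to right the insert comparison (NSC-Ceacam1L minus NSC), the hairpin comparison (NSCL61-Ceacam1sh minus NSCL61) and the line comparison (NSCL61 minus NSC). Bars are the modelled spot error, open circles are genes well above background on 1 of the 2 arrays, ticks are their "at least" values, and dotted lines mark 2-fold. The middle panel spans -7.98 for Kit to 9.28 for Fgf7, whereas in the left panel most members lie between the dotted lines.

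Among the paracrine ligands, 5 of 10 evaluated were higher and 2 lower in NSCL61-Ceacam1sh than in NSCL61. The shares over all genes were 23.5% higher and 24.2% lower. Of these ligands, Fgf2, Fgf5, Fgf7 and Fgf10 were evaluated only because they were bright on NSCL61-Ceacam1sh, and Fgf9 only because it was bright on NSCL61. The count is therefore a description of these 2 arrays. Fgf7, keratinocyte growth factor, is secreted by mesenchymal cells and acts on an epithelial splice form of FGFR2. Its level was 1252% on NSCL61-Ceacam1sh against 2.01% on NSCL61, and 5.60% on NSC-Ceacam1L against 2.42% on NSC. It was bright with the hairpin, low but above background in its single spot with the insert, and not above background on NSCL61 or NSC. Fgf7 was at least 314-fold higher in NSCL61-Ceacam1sh than in NSCL61 (9.28 ± 0.67 as measured on the log2 scale, and 6.34 with normexp). Between NSC-Ceacam1L and NSC it was at least 1.08-fold higher (1.21 ± 0.75 as measured), and with normexp background correction that difference was 0.10.

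Fgf10, a mesenchymal ligand of the same receptor form with a role in limb and lung budding, was printed 10 times on each array. Its level was 103% on NSCL61-Ceacam1sh, 1.01% on NSCL61, 1.43% on NSC-Ceacam1L and 1.34% on NSC. The 9 spots kept on NSCL61-Ceacam1sh ran from 96.5% to 108%, all 9 well above background, and no spot was well above background on any other array. It was at least 25.9-fold higher in NSCL61-Ceacam1sh than in NSCL61, and with normexp the difference was 2.93, below that value.

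Fgf5, known for ending the growth phase of hair, was at 30.6% on NSCL61-Ceacam1sh, 1.65% on NSCL61, 0.721% on NSC-Ceacam1L and 1.37% on NSC. Only the hairpin array was above background, and Fgf5 was at least 7.68-fold higher there than on NSCL61 (1.46 on the log2 scale with normexp). Fgf2, basic FGF, is a standard mitogen of neural stem cell culture. Its level, also over 10 printed spots, was 7.55% on NSCL61-Ceacam1sh, 3.38% on NSCL61, 3.01% on NSC-Ceacam1L and 2.31% on NSC. All 10 spots on NSCL61-Ceacam1sh were well above background (6.07% to 9.27%), against 0 of 10 on NSCL61 (1.67% to 5.46%), and the spots of these 2 arrays did not overlap. Fgf2 was at least 1.89-fold higher (1.16 ± 0.52 as measured), which was 0.12 with normexp and 0.58 over the mean of all its probes.

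Fgf1, acidic FGF, binds all FGF receptors. Its level was 124% on NSCL61-Ceacam1sh against 48.7% on NSCL61, and 346% on NSC-Ceacam1L against 103% on NSC. In each pair the array labelled with a Ceacam1 vector was the higher one. The differences were 1.35 ± 0.21 for NSCL61-Ceacam1sh minus NSCL61, 1.75 ± 0.21 for NSC-Ceacam1L minus NSC and -1.08 ± 0.21 for NSCL61 minus NSC. The last was -0.83 with normexp, under 2-fold. A second Fgf1 probe was dim on all 4 arrays (0.929% to 4.34%), so the levels of Fgf1 rest on 1 probe. Over the mean of both probes, NSCL61-Ceacam1sh minus NSCL61 was 1.79 and NSC-Ceacam1L minus NSC was 1.12.

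Fgf9 and Fgf18 were lower in NSCL61-Ceacam1sh. Fgf9, first known as a factor that acts on glial cells, was at 2.405% on NSCL61-Ceacam1sh, not above background. It was at 16.7% on NSCL61, 15.9% on NSC-Ceacam1L and 12.04% on NSC. It was at least 4.495-fold lower in NSCL61-Ceacam1sh than in NSCL61 (-1.195 on the log2 scale with normexp), and under 2-fold apart in the other 2 comparisons. Fgf18, a regulator of cartilage and bone, was at 21.3% on NSCL61-Ceacam1sh against 85.4% on NSCL61, and at 32.6% on NSC-Ceacam1L against 16.9% on NSC. NSCL61 was the high array for this gene. Its differences were -2.01 ± 0.21 for NSCL61-Ceacam1sh minus NSCL61, 2.34 ± 0.23 for NSCL61 minus NSC and 0.95 ± 0.23 for NSC-Ceacam1L minus NSC. The last lay just under the 2-fold line, and it passed with median scaling (1.04), cyclic loess (1.08), spike-in scaling (1.33) and the mean of both probes (1.18), and was 0.58 with normexp. A second Fgf18 probe, which shares 26 bases with the first, gave -2.57 ± 0.30, 2.76 ± 0.38 and 1.40 ± 0.38 in the same order.

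Fgf6, Fgf8 and Fgf22 were well above background on all 4 arrays and differed by less than 2-fold in all 3 comparisons. Fgf8, an organiser of the midbrain and hindbrain, was at 18.4% on NSCL61-Ceacam1sh, 14.2% on NSCL61, 12.5% on NSC-Ceacam1L and 21.04% on NSC. Fgf6, known from muscle regeneration, was at 67.2%, 93.1%, 65.6% and 79.0%, and Fgf22, an organiser of synapses, at 23.4%, 19.2%, 10.2% and 16.2% on the arrays in that order. For both Fgf6 and Fgf22 the probe used is keyed in the files to a sequence record outside RefSeq, and the probe keyed to the RefSeq transcript was not above background on any array. The other Fgf8 probes, keyed to RefSeq like the one used, were not above background on any array either. The levels of Fgf6, Fgf8 and Fgf22 therefore rest on 1 probe each.

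The intracellular FGFs (Fgf11 to Fgf14) are not secreted and are known to bind voltage-gated sodium channels of neurons. Fgf12 was at 0.955% on NSCL61-Ceacam1sh, 0.967% on NSCL61, 79.3% on NSC-Ceacam1L and 51.5% on NSC. Over its printed spots it ran from 74.5% to 85.1% on NSC-Ceacam1L and from 45.4% to 54.4% on NSC, and no spot was well above background on the 2 arrays of the NSCL61 line. Fgf12 was at least 12.9-fold lower in NSCL61 than in NSC (-2.16 on the log2 scale with normexp), and a second probe, also dim on both arrays of that line, was at least 5.43-fold lower. In the authors' deposited table, used as an alternative, Fgf12 gave -0.85.

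Fgf13 was at 16.4% on NSCL61-Ceacam1sh against 1.46% on NSCL61, and at 16.5% on NSC-Ceacam1L against 18.7% on NSC. With this probe NSCL61 was the dim array, while the other 3 lay close together. Fgf13 was at least 4.11-fold higher in NSCL61-Ceacam1sh than in NSCL61 and at least 4.69-fold lower in NSCL61 than in NSC. With normexp the measured differences were 0.79 and -0.95, both under 2-fold. A second Fgf13 probe was at 8.21% on NSCL61-Ceacam1sh and dim on NSCL61 (4.03%), NSC-Ceacam1L (2.93%) and NSC (3.31%). It was at least 2.04-fold higher in NSCL61-Ceacam1sh than in NSCL61 and gave 0.28 ± 0.63 for NSCL61 minus NSC. The lower Fgf13 level in NSCL61 than in NSC therefore rests on 1 probe. Fgf11 (8.07% to 11.4%) and Fgf14 (9.97% to 13.2%) differed by less than 2-fold in all comparisons. A second Fgf14 probe behaved otherwise, at 3.34% on NSCL61-Ceacam1sh and 0.918% on NSCL61, both dim, 17.4% on NSC-Ceacam1L and 12.02% on NSC, at least 3.01-fold lower in NSCL61 than in NSC, where the probe used gave -0.13 ± 0.26.

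Of the hormone-like FGFs, which circulate and act with Klotho proteins, Fgf23 alone was above background. Fgf23, a phosphate hormone of bone, was at 818% on NSCL61-Ceacam1sh, 1950.1% on NSCL61, 2101% on NSC-Ceacam1L and 1471% on NSC, and it was lower in NSCL61-Ceacam1sh than in NSCL61 by the 2-fold rule (-1.25 ± 0.20, and -0.81 with spike-in scaling). This signal came from a probe that holds a run of 10 CA repeats (mm9 chr6:127030758-127030817, plus strand). The second Fgf23 probe (chr6:127031289-127031348, plus strand) was not above background on any array, at 0.945% on NSCL61-Ceacam1sh, 4.16% on NSCL61, 0.813% on NSC-Ceacam1L and 1.21% on NSC. The first 30 bases of each are shown because the repeat separates them, with the repeat in capitals.
Fgf23 probe used: cCACACACACACACACACACAtacatgtaa
Fgf23 second probe: tttagtgaaagcctccgctagcaggttgac
Of all 22 probes on the array with at least 10 CA repeats, 22 were well above background on all 4 arrays, against 42.1% of all probes. The value for Fgf23 is therefore given as that of 1 probe, and what it bound was not tested.

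The FGF receptors split in NSCL61-Ceacam1sh. Fgfr1, a main receptor of neural progenitors, was at 8849% on NSCL61-Ceacam1sh against 6835% on NSCL61, and at 4475% on NSC-Ceacam1L against 3438% on NSC. It differed by 0.37 ± 0.20 and 0.38 ± 0.20 in the 2 Ceacam1 comparisons, under 2-fold, and by 0.99 ± 0.20 for NSCL61 minus NSC, just under the line. That last value passed 2-fold with quantile normalization (1.13), cyclic loess (1.13), median scaling (1.00), normexp (1.01) and in the authors' deposited table (1), and was 0.77 with spike-in scaling and 0.79 over the mean of its probes. A second Fgfr1 probe gave 1.18 ± 0.20 and the remaining probe 0.20 ± 0.20 for NSCL61 minus NSC.

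Fgfr3, a receptor of radial glia and astrocytes, showed the largest difference in the 3 comparisons of a member well above background on both arrays. Its level was 28.7% on NSCL61-Ceacam1sh, 1656% on NSCL61, 2125% on NSC-Ceacam1L and 2271% on NSC. The hairpin array stood apart and the other 3 differed by less than 2-fold. Fgfr3 was lower in NSCL61-Ceacam1sh than in NSCL61 by 57.8-fold (-5.85 ± 0.21). A second RefSeq probe was at 5.09%, dim, on NSCL61-Ceacam1sh against 101% on NSCL61 (at least 19.7-fold lower), and the third probe was dim on all 4 arrays.

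Fgfr2 was at 16.6% on NSCL61-Ceacam1sh against 50.9% on NSCL61, and at 60.1% on NSC-Ceacam1L against 41.7% on NSC. It differed by -1.62 ± 0.22 for NSCL61-Ceacam1sh minus NSCL61 and was under 2-fold apart in the other 2 comparisons. A second probe, printed 10 times, shares 42 of its 60 bases with the first. It ran from 0.883% to 2.10% over its spots on NSCL61-Ceacam1sh, none well above background, against 7.02% to 9.32% on NSCL61, all well above background, and was at least 2.23-fold lower. The first 30 bases of both probes are shown, with the shared run in capitals where it falls in this window. They lie at mm9 chr7:137307473-137307532 and chr7:137307455-137307514 on the minus strand.
Fgfr2 probe used: atgccttatgaaccctgtCTGCCTCAGTAT
Fgfr2 second probe: CTGCCTCAGTATCCACACATAAACGGCAGT

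Fgfr4 was dim on NSCL61-Ceacam1sh at 2.04%, and was at 4.98% on NSCL61, 5.69% on NSC-Ceacam1L and 7.17% on NSC. It was at least 1.34-fold lower in NSCL61-Ceacam1sh than in NSCL61. The measured difference of -1.29 ± 0.76 lost its 2-fold call with quantile normalization (-0.86), cyclic loess (-0.89), spike-in scaling (-0.84), normexp (-0.48) and the mean of both probes (-0.62). Fgfrl1 binds FGFs but lacks the kinase domain of the other receptors. Its level was 2816% on NSCL61-Ceacam1sh against 12161% on NSCL61, and 4051% on NSC-Ceacam1L against 3375% on NSC. NSCL61 was the high array and the other 3 lay close together. The differences were -2.11 ± 0.20 for NSCL61-Ceacam1sh minus NSCL61, 1.85 ± 0.20 for NSCL61 minus NSC and 0.26 ± 0.20 for NSC-Ceacam1L minus NSC.

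Of the PDGF ligands, 3 of 4 were higher in NSCL61-Ceacam1sh than in NSCL61, against 23.5% of all genes evaluated. Pdgfd entered that count only because it was bright on NSCL61-Ceacam1sh. Between NSCL61 and NSC, 3 of 3 evaluated were higher in NSCL61, against 14.4% of all genes. So few genes make these counts a description only. Pdgfb, which binds both PDGF receptors, was at 403% on NSCL61-Ceacam1sh against 32.7% on NSCL61, and at 15.2% on NSC-Ceacam1L against 8.06% on NSC. Its second probe was at 13.8% on NSCL61-Ceacam1sh and dim elsewhere (0.849% to 1.09%), at least 3.46-fold higher than on NSCL61. Pdgfb differed by 3.62 ± 0.21 for NSCL61-Ceacam1sh minus NSCL61, 2.02 ± 0.29 for NSCL61 minus NSC and 0.92 ± 0.29 for NSC-Ceacam1L minus NSC. The value for NSCL61 minus NSC was 0.83 over the mean of both probes, and the value for NSC-Ceacam1L minus NSC passed 2-fold with median scaling (1.01), cyclic loess (1.05) and spike-in scaling (1.30) but was 0.29 with normexp and 0.45 over the mean of both probes.

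Pdgfc, a ligand that is cleaved before it binds the alpha receptor, was at 499% on NSCL61-Ceacam1sh against 108% on NSCL61, and at 58.1% on NSC-Ceacam1L against 51.0% on NSC. It was higher by 2.21 ± 0.20 in NSCL61-Ceacam1sh than in NSCL61 and by 1.08 ± 0.21 in NSCL61 than in NSC, and the difference between NSCL61 and NSC was 0.86 with spike-in scaling and 0.89 with normexp. Pdgfd, a cleaved ligand of the beta receptor, was at 18.4% on NSCL61-Ceacam1sh, 1.01% on NSCL61, 1.40% on NSC-Ceacam1L and 1.36% on NSC. Only NSCL61-Ceacam1sh was above background, at least 4.62-fold higher than NSCL61 (1.04 on the log2 scale with normexp).

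Pdgfa, the ligand of oligodendrocyte precursors, differed by less than 2-fold in the hairpin comparison. It was at 2642% on NSCL61-Ceacam1sh against 2471% on NSCL61, and at 604% on NSC-Ceacam1L against 492% on NSC. The arrays split by line and not by Ceacam1. Pdgfa differed by 2.33 ± 0.20 for NSCL61 minus NSC, and by 0.10 ± 0.20 and 0.30 ± 0.20 in the hairpin and insert comparisons, and a second probe that shares 51 bases gave 2.33, 0.06 and 0.31. The PDGF receptors are no members of the set and were looked up after their values had been seen. Pdgfrb was at 327% on NSCL61-Ceacam1sh against 0.952% on NSCL61, dim, at least 82.0-fold higher. It was at 15.9% on NSC-Ceacam1L against 1.21% on NSC, dim, at least 3.06-fold higher. Pdgfra was at 204% on NSCL61-Ceacam1sh against 306% on NSCL61 and at 566% on NSC-Ceacam1L against 287% on NSC, under 2-fold in both. Pdgfrb is also on the list of fibroblast and mural markers. Pdgfra is on the list of oligodendrocyte precursor markers, of which 0 of 6 were higher and 5 lower in NSCL61-Ceacam1sh than in NSCL61. Its 204% was most of their summed 229% on NSCL61-Ceacam1sh. The part of either cell type in these values was not tested.

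Of the VEGF ligands, Vegfc, which acts on FLT4 in lymphatic growth, was at 285% on NSCL61-Ceacam1sh, 81.1% on NSCL61, 117% on NSC-Ceacam1L and 122% on NSC. The hairpin array was the high one, by 1.82 ± 0.20 over NSCL61. Vegfb, a ligand of FLT1, ran from 368% to 421% over the 4 arrays and differed by -0.19 ± 0.20, -0.06 ± 0.20 and 0.13 ± 0.20 in the hairpin, insert and line comparisons. Vegfa, no member here, was at 113% on NSC-Ceacam1L against 1716% on NSC, a difference of -3.93 ± 0.20.

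Of the 3 VEGF receptors, 2 (Flt1 and Flt4) were lower in NSC-Ceacam1L than in NSC, against 6.05% of all genes evaluated. Flt4 entered that count only because it was bright on NSC, so the count is a description only. Flt1, VEGF receptor 1, was at 369% on NSCL61-Ceacam1sh against 573% on NSCL61, and at 56.7% on NSC-Ceacam1L against 180.4% on NSC. The insert array was the lowest and NSCL61 the highest. Flt1 differed by -1.67 ± 0.20 for NSC-Ceacam1L minus NSC, 1.67 ± 0.20 for NSCL61 minus NSC and -0.63 ± 0.20 for NSCL61-Ceacam1sh minus NSCL61. A second Flt1 probe, keyed to a record outside RefSeq, was at 125% on NSCL61-Ceacam1sh against 43.1% on NSCL61, and at 3.98%, dim, on NSC-Ceacam1L against 15.7% on NSC. It gave -1.98 ± 0.41 and 1.46 ± 0.24 in the first 2 comparisons and 1.54 ± 0.21 in the last, opposite in sign to the probe used. The direction of Flt1 with the hairpin therefore depends on the probe.

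Flt4, VEGF receptor 3, was at 21.04% on NSC and dim elsewhere, at 0.981% on NSCL61-Ceacam1sh, 1.57% on NSCL61 and 0.869% on NSC-Ceacam1L. It was at least 6.08-fold lower in NSC-Ceacam1L than in NSC and at least 5.28-fold lower in NSCL61 than in NSC, each value resting on 1 spot, and the differences were -1.54 and -1.14 on the log2 scale with normexp. Kdr, VEGF receptor 2 and the main VEGF receptor of endothelium, was at 844% on NSCL61-Ceacam1sh against 1364% on NSCL61, and at 852% on NSC-Ceacam1L against 1069% on NSC, under 2-fold in every comparison. Its second probe was printed 10 times. It ran from 1.595% to 3.43% on NSCL61-Ceacam1sh and from 2.70% to 5.97% on NSCL61, against 17.9% to 20.8% on NSC-Ceacam1L and 12.8% to 16.1% on NSC. The 2 arrays of the NSCL61 line did not overlap the 2 NSC arrays in this probe, and it gave -1.79 ± 0.44 for NSCL61 minus NSC where the probe used gave 0.35 ± 0.20. The 2 probes lie at mm9 chr5:76330395-76330454 and chr5:76329309-76329368 on the minus strand and do not overlap, and their first 30 bases are shown because they disagree.
Kdr probe used: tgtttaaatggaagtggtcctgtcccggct
Kdr second probe: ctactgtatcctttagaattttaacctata

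**Figure D3:**
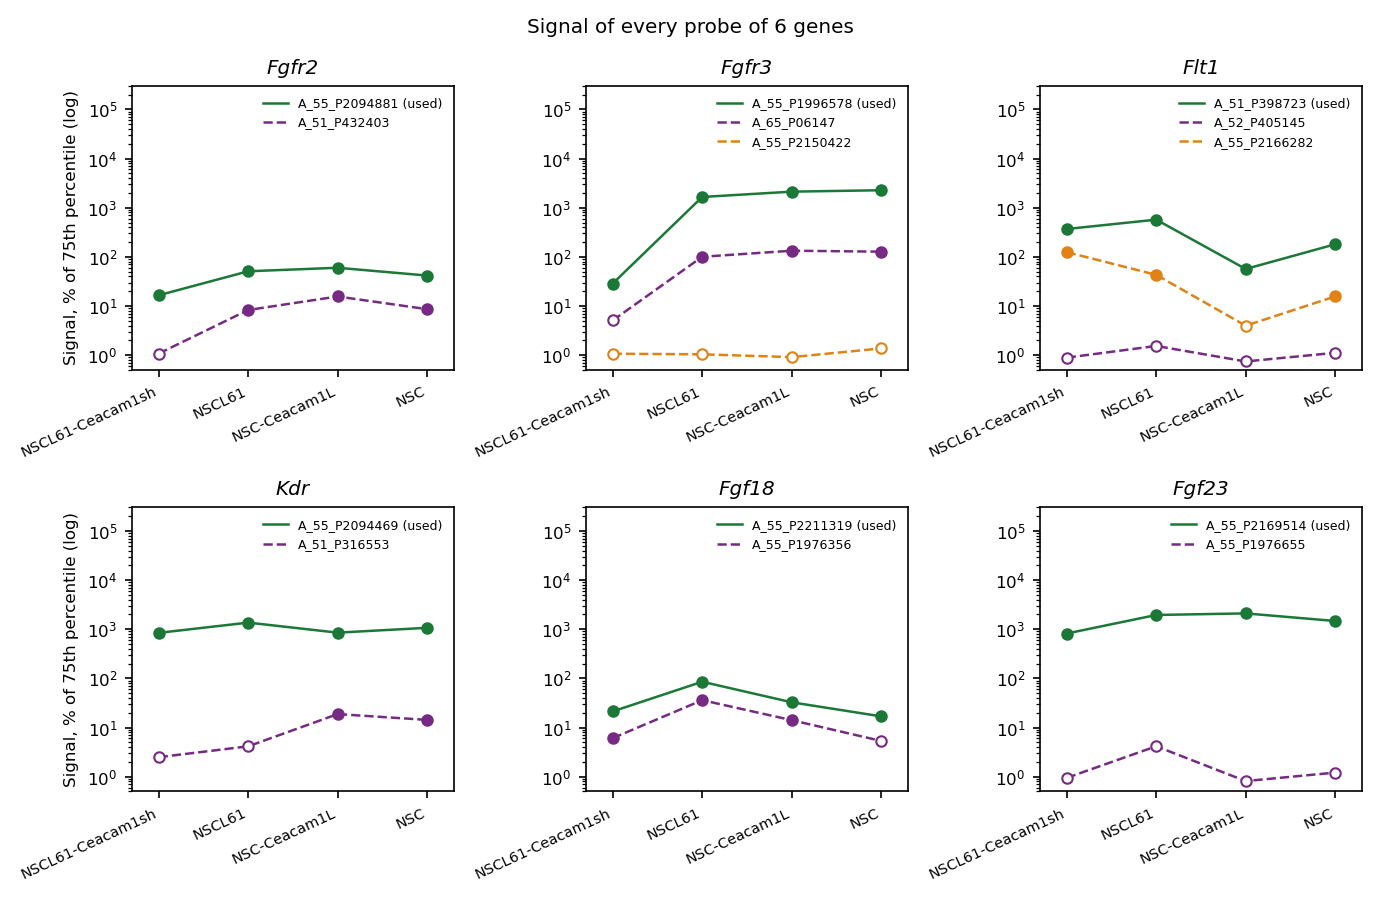
Level of every probe of Fgfr2, Fgfr3, Flt1, Kdr, Fgf18 and Fgf23 on the 4 arrays (horizontal axis), as a percentage of the array's 75th percentile on a log axis. Solid lines are the probe used, dashed lines the others, and open symbols are not well above background. The 2 Fgf18 probes order the arrays alike with differences of unequal size (-2.01 and -2.57 for NSCL61-Ceacam1sh minus NSCL61), whereas the lines of the 2 Kdr probes and of the 2 Flt1 probes above background cross or part.

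Hgf, the motility factor of mesenchymal cells, was at 27.5% on NSCL61-Ceacam1sh, 0.928% on NSCL61, 0.782% on NSC-Ceacam1L and 1.17% on NSC. Only NSCL61-Ceacam1sh was above background, at least 6.88-fold higher than NSCL61 (1.67 on the log2 scale with normexp). Its receptor gene Met, printed 10 times, was at 42.9% on NSCL61-Ceacam1sh against 27.7% on NSCL61, and at 8.25% on NSC-Ceacam1L against 8.23% on NSC. Over spots, Met ran from 40.2% to 45.3% on NSCL61-Ceacam1sh and from 25.4% to 30.5% on NSCL61, which did not overlap, and from 6.72% to 10.03% on NSC-Ceacam1L and 6.73% to 10.2% on NSC, which did. Met differed by 1.75 ± 0.30 for NSCL61 minus NSC (0.94 with normexp) and by 0.63 ± 0.21 for NSCL61-Ceacam1sh minus NSCL61 (1.08 with spike-in scaling), while NSC-Ceacam1L minus NSC gave 0.00 ± 0.32.

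Kit, the stem cell factor receptor, was at 0.912% on NSCL61-Ceacam1sh, 231% on NSCL61, 64.2% on NSC-Ceacam1L and 53.2% on NSC. Both printed spots were well above background on the last 3 arrays and none on NSCL61-Ceacam1sh. Kit was at least 62.1-fold lower in NSCL61-Ceacam1sh than in NSCL61 (-4.43 on the log2 scale with normexp) and higher by 2.12 ± 0.21 in NSCL61 than in NSC. Its ligand Kitl was at 65.2% on NSCL61-Ceacam1sh against 392% on NSCL61, and at 106.7% on NSC-Ceacam1L against 97.1% on NSC. NSCL61 was the high array for ligand and receptor alike. Kitl differed by -2.59 ± 0.21 for NSCL61-Ceacam1sh minus NSCL61, 2.01 ± 0.20 for NSCL61 minus NSC and 0.14 ± 0.20 for NSC-Ceacam1L minus NSC.

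Promoter sequence was looked up because several members were bright on 1 array of a pair and dim on the other. RefSeq starts were found for 32 of the 40 members (GRCm38.p6, 250 bases before each start, 42 starts). The 8 without an entry were Fgf1, Fgf8, Fgf15, Fgf16, Fgf17, Fgf20, Fgfr1 and Pdgfb. On either strand, GGGCGG (a GC box) was in 23 of 32 members, 71.9%, against 35.4% of all 27025 genes with a start. TGANTCA (the AP-1 motif) was in 3 of 32 (Fgf12, Fgf13 and Met), 9.38% against 7.82%, and GGAAGT (an ETS core) was in 6 of 32, 18.8% against 22.2%. Matches were counted for each motif by itself and per gene over all its starts. The median number of CpG pairs was 17.5 over the members' starts and 6 over all 32851. The reference was every gene with a start, not matched to the genes of the array or for CpG number. The higher GC box share is therefore not read as a trait of the members. The stretches of Fgf7, Fgf10 and Hgf, dim in NSCL61 and bright in NSCL61-Ceacam1sh, and of Kit, the reverse, are shown 5′ to 3′ on the gene's strand. Capitals mark matches to the 3 motifs, and Fgf7 has none. They lie at chr2:126034408-126034657, chr13:118714449-118714698, chr5:16553245-16553494 and chr5:75574737-75574986, all on the plus strand.
Fgf7: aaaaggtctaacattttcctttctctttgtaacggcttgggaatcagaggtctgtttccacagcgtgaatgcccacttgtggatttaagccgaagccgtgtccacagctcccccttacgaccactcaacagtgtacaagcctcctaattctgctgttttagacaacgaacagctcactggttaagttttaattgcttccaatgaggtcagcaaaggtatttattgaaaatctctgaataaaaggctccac
Fgf10: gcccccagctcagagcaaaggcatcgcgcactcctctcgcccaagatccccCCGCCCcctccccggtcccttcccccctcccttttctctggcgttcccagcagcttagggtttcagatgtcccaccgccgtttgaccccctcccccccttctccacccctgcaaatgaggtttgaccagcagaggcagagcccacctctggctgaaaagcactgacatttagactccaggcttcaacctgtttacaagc
Hgf: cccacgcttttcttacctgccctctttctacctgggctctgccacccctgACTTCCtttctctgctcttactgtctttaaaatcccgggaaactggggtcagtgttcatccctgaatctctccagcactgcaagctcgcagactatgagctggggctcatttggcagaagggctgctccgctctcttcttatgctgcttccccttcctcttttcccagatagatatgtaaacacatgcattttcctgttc
Kit: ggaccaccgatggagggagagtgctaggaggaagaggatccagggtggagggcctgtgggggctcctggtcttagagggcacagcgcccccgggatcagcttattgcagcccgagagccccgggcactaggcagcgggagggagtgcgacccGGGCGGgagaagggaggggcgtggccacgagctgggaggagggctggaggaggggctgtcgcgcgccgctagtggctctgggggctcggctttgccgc
The Fgf7, Fgf10 and Hgf stretches held 6, 8 and 4 CpG pairs and the Kit stretch 17, with 18 at a second Kit start, not shown. Other members dim on NSCL61 and bright on NSCL61-Ceacam1sh had 24 (Fgf5), 20 (Fgf2), 3 (Pdgfd) and, over 4 starts, 2 to 33 (Fgf13). Other members with the reverse pattern had 11 (Fgf9) and 15 (Fgfr4). The CpG numbers of the members with these opposite patterns overlapped. With so few members nothing more is read from them, and a role of CpG number was not tested. The capitals are GGGCGG in Fgf10 (on the opposite strand) and Kit, and GGAAGT on the opposite strand in Hgf. A second Hgf start, not shown, had no match to the 3 motifs.

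The pathway around the members was read from 5 lists. For comparison, 23.5% of all evaluated genes were higher and 24.2% lower by 2-fold or more between NSCL61-Ceacam1sh and NSCL61. The shares were 10.5% and 6.05% between NSC-Ceacam1L and NSC, and 14.4% and 14% between NSCL61 and NSC. Of 17 feedback inhibitors and ETS targets of receptor signalling, several of them known to be induced by MAP kinase activity, 16 were evaluated. MAP kinase activity itself was not measured. Between NSCL61-Ceacam1sh and NSCL61, 9 were higher and 0 lower, with a median of 1.59 against 0.01 over all genes. Fosl1, an AP-1 subunit, was at 1108% on NSCL61-Ceacam1sh against 29.3% on NSCL61 (5.24 ± 0.21), Dusp4, a MAP kinase phosphatase, at 1309% against 43.4% (4.91 ± 0.21), and Errfi1, an inhibitor of EGF receptors, at 7433% against 597% (3.64 ± 0.20). Spry4, an inhibitor of FGF signalling, was at 80.0% on NSCL61-Ceacam1sh against 12.3% on NSCL61 (2.71 ± 0.23).

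Between NSCL61 and NSC, 2 genes of this list were higher and 9 lower, with a median of -1.05 against 0.03 over all genes. Spry4 was at 12.3% on NSCL61 against 120.2% on NSC (-3.29 ± 0.23). Dusp6 was at 499% against 3792% (-2.93 ± 0.20), Spry1 at 258% against 1833% (-2.83 ± 0.20) and the ETS factor Etv4 at 335% against 2125% (-2.67 ± 0.20). Between NSC-Ceacam1L and NSC, 1 was higher and 1 lower, with a median of -0.41 against -0.10. The lower one was Spred2, an inhibitor of Ras signalling, at 70.1% on NSC-Ceacam1L against 156% on NSC (-1.15 ± 0.21), and the higher one was the phosphatase Dusp5, at 16.4% against 4.604%, dim, at least 3.17-fold.

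**Figure D4:**
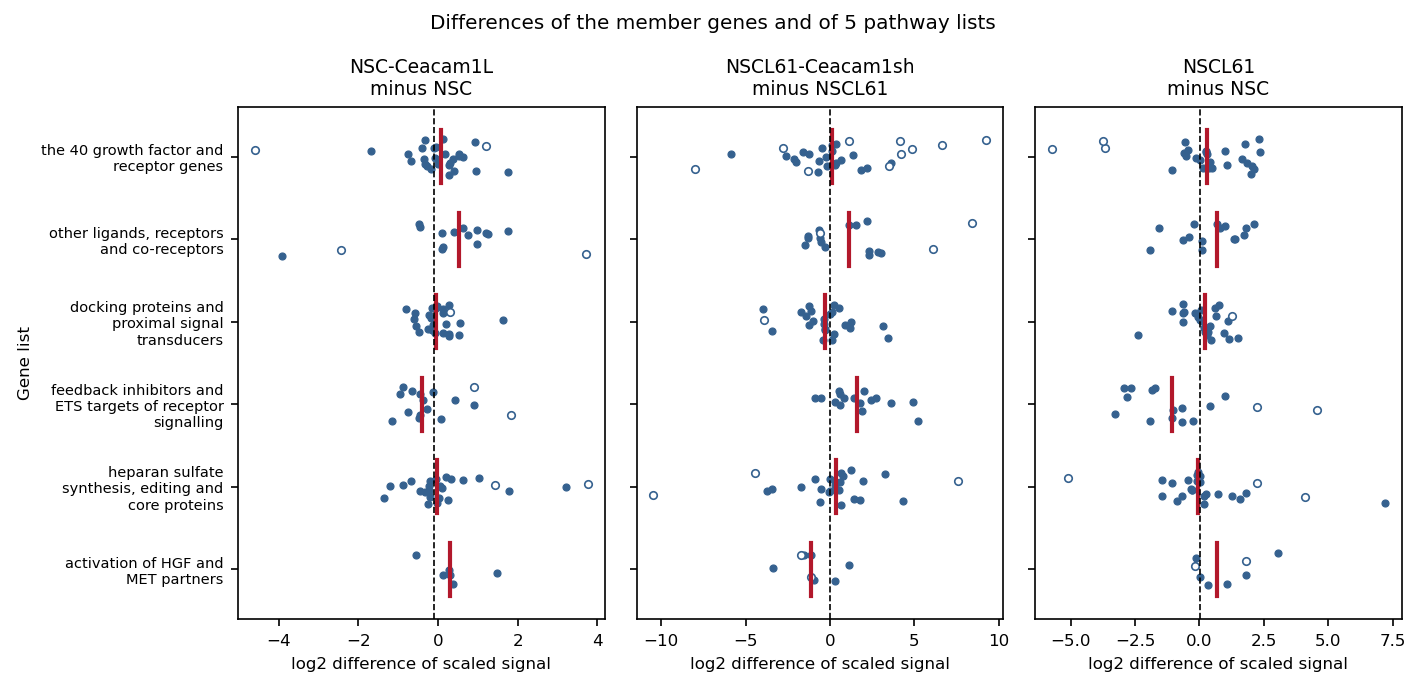
Difference of each evaluated gene on the log2 scale (horizontal axes, which differ in range) for the 40 members (top row) and 5 pathway lists in the 3 comparisons. Open circles are genes well above background on 1 array, red bars are medians and the dashed line is the median over all genes. The list of feedback inhibitors and ETS targets lies right of that line in the middle panel (median 1.59) and left of it in the right panel (median -1.05).

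Of 22 other ligands, receptors and co-receptors, 9 were higher and 3 lower of 17 evaluated in NSCL61-Ceacam1sh against NSCL61 (median 1.11), among them Csf1, a ligand of a kinase related to KIT, at 2280% against 279% (3.03 ± 0.20), and Nrp2, a VEGF co-receptor, at 4264% against 592% (2.85 ± 0.20). The same list gave 4 higher and 2 lower of 16 in NSC-Ceacam1L against NSC (median 0.51) and 5 higher and 2 lower of 15 in NSCL61 against NSC (median 0.69). Of 25 docking proteins and proximal transducers, 4 were higher and 8 lower in NSCL61-Ceacam1sh against NSCL61 (median -0.31). Their share past 2-fold was near the 47.7% of all genes. The adaptor Shc1 was at 1567% on NSCL61-Ceacam1sh against 143% on NSCL61 (3.46 ± 0.20), whereas the neural adaptor Shc3 was at 5.70% against 90.6% (-3.99 ± 0.32) and Gab1, a docking protein of MET, at 24.97% against 270.2% (-3.44 ± 0.21). In NSC-Ceacam1L against NSC 1 was higher and 0 lower (median -0.04), and in NSCL61 against NSC 4 were higher and 2 lower (median 0.21).

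Of 28 genes of heparan sulfate, the co-receptor of FGFs, 25 were evaluated in each comparison. In NSCL61-Ceacam1sh against NSCL61, 7 were higher and 5 lower (median 0.38), in NSC-Ceacam1L against NSC 5 and 2 (median -0.02), and in NSCL61 against NSC 6 and 4 (median -0.06). The share past 2-fold in the hairpin comparison was near the 47.7% of all genes. Sulf1, which removes sulfate groups that FGF signalling complexes need, was at 4.24%, dim, on NSCL61-Ceacam1sh against 6019% on NSCL61, and at 382% on NSC-Ceacam1L against 41.0% on NSC. It was higher by 3.22 ± 0.21 in NSC-Ceacam1L than in NSC and by 7.20 ± 0.21 in NSCL61 than in NSC. It was at least 1419-fold lower in NSCL61-Ceacam1sh than in NSCL61, a value with no normexp counterpart here. Its partner Sulf2 was at 78.9% on NSCL61-Ceacam1sh against 1055% on NSCL61 (-3.74 ± 0.20), and the sulfotransferase Hs6st2 at 657% against 32.9% (4.32 ± 0.21). Of 10 genes of HGF activation and MET partnership, 1 was higher and 5 lower of 8 evaluated in NSCL61-Ceacam1sh against NSCL61 (median -1.14, or -1.01 with genes dim on 1 array at their bound). They included Plxnb1, a plexin that pairs with MET, at 46.6% against 489% (-3.39 ± 0.21), and Cd44, at 2466% against 1130.4% (1.13 ± 0.20). In NSC-Ceacam1L against NSC 1 was higher and 0 lower of 6 (median 0.29), and the same list gave 4 higher and 0 lower in NSCL61 against NSC, with a median of 0.70 over 8 genes that became 0.47 with dim genes at their bound.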

How the data were processed

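The deposited files are scanner output of Agilent mouse arrays in 1 colour (design 028005, mm9 positions), and their intensity column is the signal after the scanner software's own background subtraction. That software was Feature Extraction 10.7.3.1 per the file headers and 9.1 in the processing notes of the submitters. The NSC file had been saved again with rounded signals and 58 altered gene names, so names came from the NSCL61 file. Every signal was scaled to the 75th percentile of its own array, taken over the 59305 spots that are not controls (541 for NSCL61-Ceacam1sh, 439 for NSCL61, 571 for NSC-Ceacam1L and 480.0 for NSC). Outlier spots were left out (143 to 187 an array), no spot was saturated, values were taken to log2 and spots of a probe were averaged. A probe was well above background when at least 50% of its spots passed the scanner's test. The authors' deposited table has log2 values and tracked the scanner differences (slopes of 1.00 in all 3 comparisons). Its direction and scale were settled in this way, its centring is unknown (column medians 0.03, 0, -0.20 and 0.25 in the order above), and it was used as an alternative only.

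Genes other than members were named by accession, symbol or older symbol in the RefSeq table of GRCm38.p6 (27325, 3523 and 551 probes), and 24282 probes stayed unnamed. The mm9 positions are those of the files, and exon positions were not used here. Alternatives were quantile normalization and cyclic loess (limma 3.58.1), scaling by the median or by 8 spike-in probes, normexp with an offset of 50, the deposited table, the mean of all probes, other filters on dim probes and a 1.5-fold threshold. Counting of calls was tested on simulated data. The members and lists were chosen with earlier results of these data known. By rule, members counted as higher or lower and members seen on both arrays were named, with at most 4 genes per list and comparison, taken by the largest difference among genes seen on both arrays and then by bounds. Pdgfrb, Pdgfra and, in the hairpin comparison, Sulf1 were named after their values had been seen. Python 3.11.15 and R 4.3.3 were used.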

Additional observations from a re-analysis of the deposited data

Results flagged for a closer look

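In 5 members a probe that was not used passed 2-fold where the probe used did not. The Fgf18 probe A_55_P1976356 gave 1.40 for NSC-Ceacam1L minus NSC, against 0.95 for the probe used. The Fgfr1 probe A_55_P1967022 gave 1.18 for NSCL61 minus NSC, against 0.99. In both genes the probes agreed in direction and differed in which side of the line they fell. The Flt1 probe A_55_P2166282 gave 1.54 for NSCL61-Ceacam1sh minus NSCL61, against -0.63. The Fgf14 probe A_52_P1011 gave -3.71 for NSCL61 minus NSC, against -0.13, and it was dim on NSCL61, so that it shows a level at least 3.01-fold lower there. The Kdr probe A_51_P316553 gave -1.79 for NSCL61 minus NSC, against 0.35, with 3 of its 10 spots well above background on NSCL61 and 9 of 9 on NSC. Which transcripts these probes detect was not tested.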

How the results depend on the processing

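No member counted at 2-fold changed direction under any scaling, background or probe alternative. In NSC-Ceacam1L minus NSC the count of 4 members became 7 with spike-in scaling, 2 over probes well above background on both arrays and 9 at 1.5-fold, and the median of 0.07 became 0.45 with spike-in scaling and -0.080 with no filter on dim probes. In NSCL61-Ceacam1sh minus NSCL61 the count of 20 became 10 over probes well above background on both arrays, and the median of 0.13 became -0.19 there and 0.57 with spike-in scaling. In NSCL61 minus NSC the median of 0.29 became 0.068 with spike-in scaling and 0.021 with no filter, and with normexp 8 members were higher and 2 lower. The filters change which genes enter. For the other moves the cause was not tested. Spike-in scaling shifted the median of all genes to 0.28, 0.46 and -0.19 in the insert, hairpin and line comparisons, and cyclic loess shifted the insert comparison to 0.12. The share of all calls that were higher was then 84.5%, 65.4% and 40.2% with spike-in scaling, against 63.4%, 49.2% and 50.7% in the main values, and 76.4% in the insert comparison with cyclic loess. Of the members' values under alternatives, 449 moved by less than their error and 153 by more. The lowest levels measured well above background were 3.72%, 3.99%, 3.46% and 5.19% on NSCL61-Ceacam1sh, NSCL61, NSC-Ceacam1L and NSC, which limits every "at least" value. No paired analysis was possible because each group had 1 array.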
